A study of Mus musculus with 21 samples.

Results

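Hearts of mice that carried a 4T1 tumor and received only saline were compared with hearts of tumor-free mice that received saline. The measured genes were those with a mean FPKM (fragment counts scaled for gene length and library depth) of at least 0.5 over the 11 libraries concerned, which left 14035 of 56691 genes in the table. The first group, named Control in the labels and NS below for normal saline, has 5 libraries from mice without a tumor. The second, named Tb in the labels and Tumor+NS below, has 6 libraries from mice injected subcutaneously with 4T1 cells, a murine breast cancer line, and given saline. The series also holds 5 libraries of tumor-free mice given doxorubicin (DOX) by weekly intraperitoneal injection and 5 of tumor-bearing mice given doxorubicin (labelled Tb-DOX, Tumor+DOX below), 21 libraries in all, and a comparison of those appears only in the last part of the account. Age, sex and strain are not given in the sources used here, and the labels list the 4T-1 line as the source of each library, although the study describes RNA from the heart. A transplanted tumor of 1 cell line is a single tumor model, and each mouse was sampled at 1 time.

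The 4T1 line grows into a tumor known for releasing granulocyte colony-stimulating factor (G-CSF), which drives the bone marrow to make and release neutrophils. Neutrophils carry the calcium-binding pair *S100a8* and *S100a9* in their cytosol, pack lactoferrin (*Ltf*), cathelicidin (*Camp*) and neutrophilic granule protein (*Ngp*) into granules late in maturation, and make myeloperoxidase (*Mpo*) and elastase (*Elane*) only as early precursors. Distant tumors are also known to raise circulating interleukin 6 and related cytokines, whose receptors signal through STAT3 to acute phase genes such as *Socs3*, *Lcn2* and *Saa3*.

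Library totals were 13683798 to 16063691 counts in NS and 14739757 to 18601445 in Tumor+NS. Heart identity was plain in each library, in which the 10 cardiomyocyte markers summed to 53877 to 83472 CPM (read counts scaled to one common library size, with trimmed mean of M values factors). Of the 14 listed markers of 4T1 or other epithelial cells, 12 had at most 36 counts in any of the 11 libraries. For most of these the highest count was larger in Tumor+NS than in NS. It was 3 in NS and 13 in Tumor+NS for *Epcam*, 6 and 25 for *Krt8*, and 14 and 36 for *Krt18*. Only *Krt5* went the other way (2 and 0), and *Cldn4* had 0 counts in all 11. The other listed markers were *Spint2*, with up to 349 counts in NS and 384 in Tumor+NS, and *Lcn2*, which is also an acute phase gene. Of these 14 genes 3 passed the FPKM filter, of which *Lcn2* was called and *Spint2* and *Krt18* were not. *Krt18* passed it only through the tumor-bearing hearts. Whether any of these counts came from tumor cells was not tested. The libraries were not alike within groups. Mitochondrially encoded genes took 14.62% of counts in NS replicate 3 and at least 26.5% in the other NS libraries, against 19.96% to 26.72% in Tumor+NS. Tumor+NS replicate 5 had a median correlation of 0.9327 with the rest of its group, where no other library was under 0.970. Results that rest on replicate 5 are therefore given with and without it. Nothing in the labels says that the libraries of a group came from separate cages or days, so p-values measure the spread between these libraries.

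With a tumor present, more genes were called higher than lower, and the called rises were the larger changes among genes that passed the filter. Of the 14035 genes, 743 (5.29%) were higher and 179 (1.28%) were lower in Tumor+NS at an adjusted p under 0.05 in edgeR's quasi-likelihood test with Benjamini-Hochberg adjustment, here termed called, so 922 (6.57%) were called in either direction and 13113 were not. The balance depended on the method, since limma with library quality weights called 924 (6.58%) higher and 562 (4.00%) lower, and the lower count ranged from 32 to 562 over the alternatives tried. The FPKM minimum was set over both groups, so a gene could pass it through the libraries of 1 group alone. Of the 13473 genes that reached it in the NS libraries alone, 488 (3.62%) were called higher, and 346 (2.57%) without Tumor+NS replicate 5. Of the 13797 that reached it in Tumor+NS alone, 168 (1.22%) were called lower. The median log2 fold change was 1.53 among the called-higher genes and -0.61 among the called-lower genes. With a log2 fold change of at least 1 required as well, 514 genes (3.66%) were higher and 19 (0.135%) lower. The medians and these counts include genes that passed the FPKM minimum through 1 group only, for which a difference was built into the filter. The sizes were not compared without such genes. The libraries of the groups did not overlap for 491 of the called-higher genes and 113 of the called-lower genes, whereas over all tested genes 4.37% lay wholly above and 1.91% wholly below the NS libraries. Without Tumor+NS replicate 5, 571 genes (4.07%) were higher and 140 (0.998%) lower, of which 560 and 116 were among those called with it. In each of the 11 fits that left out 1 library, 479 of the higher and 47 of the lower genes were called, so the lower calls rested more on single libraries. Without Tumor+NS replicate 1 the lower count was 289, or 50 with the fold threshold, and without NS replicate 2 it was 88.

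**Figure D1:**
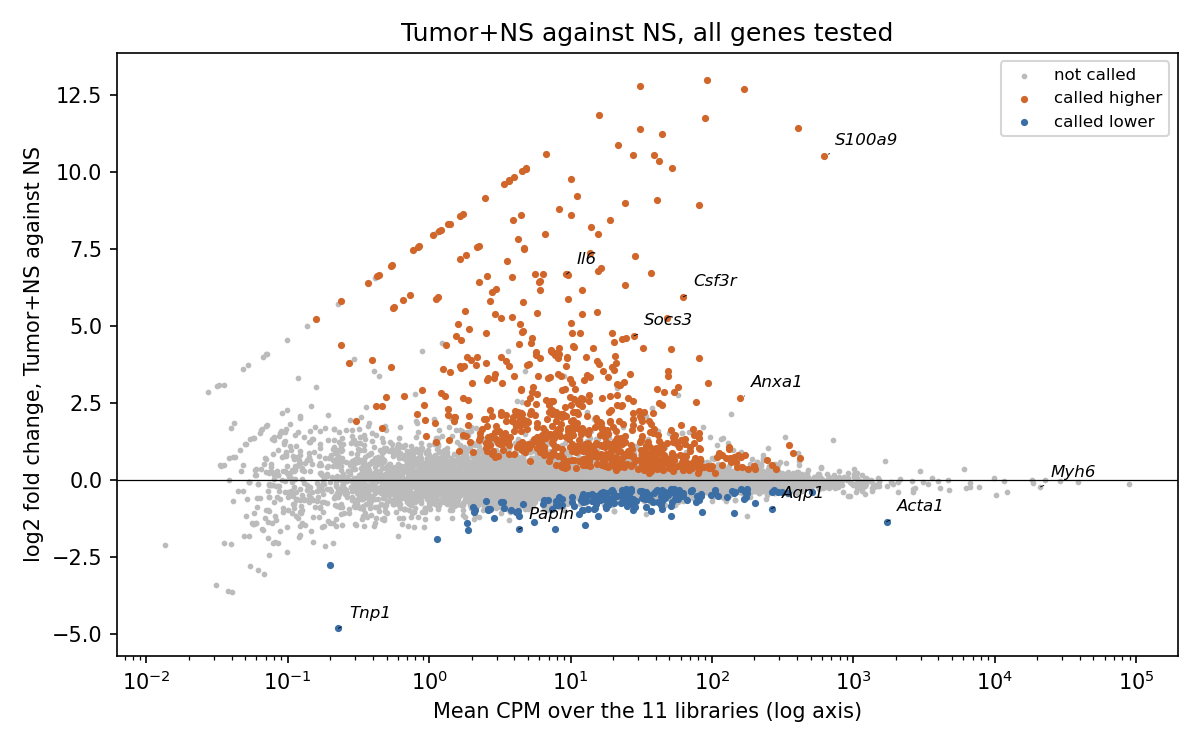
Each point is 1 of the 14035 tested genes, with its mean CPM over the 11 libraries on a log x axis and its log2 fold change, Tumor+NS against NS, on the y axis. Orange points are the 743 genes called higher, blue points are the 179 called lower, and gray points were not called.

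The 6 tumor-bearing hearts also differed among themselves in a graded way. Over the called-higher genes, the highest of the 6 was replicate 5 for 457 genes and replicate 6 for 259, together 96.4% of them, where the same replicates were highest for 49.4% of all tested genes. Replicate 1 was the lowest for 595 (80.1%) against 19.9% of all tested genes. Leaving out the neutrophil markers, the shares were 96.3% and 79.6% of 727 genes. The called-lower genes were the mirror image, with replicate 5 or 6 lowest for 83.2% (48.5% of all tested genes) and replicate 1 highest for 52.5% (17.8% of all). These 3 replicates were singled out after the values were seen, and tumor size per mouse was not used here.

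Neutrophil transcripts made up the clearest change. Of the 17 neutrophil markers listed, 16 passed the FPKM filter and were called higher, but 14 of them passed it through the tumor-bearing hearts only, so that a difference in those was built into the filter. The markers that reached the minimum in NS alone, *S100a9* and *Csf3r*, were both called higher. The 16 markers together summed to 2.78 to 5.08 CPM in NS and to 609, 1633, 2306, 2258, 5900 and 5246 CPM in Tumor+NS replicates 1 to 6. As a share of all counts this was at most 0.000497% in NS and 0.0617% to 0.591% in Tumor+NS. Bulk RNA cannot tell fewer cells of a type from less RNA per cell, nor more cells from more RNA per cell, and whether the cells sat in the tissue or in blood left in the heart was not tested. Erythroid markers, which residual blood would also carry, summed to 220 to 816 CPM in NS and 394 to 857 CPM in Tumor+NS. The upper NS value was that of NS replicate 3 alone, and the other NS libraries lay between 220 and 412 CPM. Of 7 tested, 0 were called by edgeR, DESeq2 or limma, and 0 had an unadjusted p under 0.05, but 6 were called higher when limma weighted the libraries by quality, a fit that called 6.58% of all tested genes higher.

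*S100a9* (chromosome 3:90599939-90603028, minus strand, in GRCm39, the build of all gene coordinates here) had 0.638, 0.625, 0.397, 1.94 and 0.388 CPM in the NS libraries. In Tumor+NS it ranged from 255 to 2207 CPM with a median of 901. The lowest tumor-bearing heart was thus far above the highest control, a log2 fold change of 10.53 ± 0.84 (SE, adjusted p = 3.71e-08). Its partner *S100a8* (chromosome 3:90576285-90577342), which forms calprotectin with it, went from 0.263 ± 0.176 CPM (SD, n = 5) to 741 ± 541 CPM (SD, n = 6), a log2 fold change of 11.43 ± 0.96 (SE, adjusted p = 6.60e-08). *Csf3r*, the receptor of G-CSF, had the joint smallest adjusted p of all genes. It measured 1.28, 2.01, 1.82, 1.87 and 2.20 CPM in NS, and 37.4 at the lowest, 101 at the median and 222 at the highest in Tumor+NS. Again no library overlapped, and *Csf3r* rose by 5.95 ± 0.40 on the log2 scale (SE, adjusted p = 8.57e-09). *Mmp9* (gelatinase B) rose by 7.27 ± 0.56 and *Cxcr2* (the receptor for neutrophil-attracting chemokines) by 9.07 ± 0.70 on the log2 scale (SE in each case). *Slfn4*, a schlafen family gene of myeloid cells that stands outside the marker list, rose by 8.91 ± 0.65. It passed the FPKM filter only through the tumor-bearing hearts, so a difference was built in for it too.

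Granule and secreted products were almost unmeasured in the control hearts, so their folds are ratios of counts with exact 95% counting intervals, which cover counting error only. *Ltf* had 3 counts in all 5 NS libraries together against 540 to 6163 counts per Tumor+NS library, a ratio of 4215 (1442 to 20440). *Ngp* likewise had 3 counts in NS and a ratio of 7931 (2714 to 38460), and *Retnlg*, a resistin-like protein of neutrophils, had 1 count in NS and a ratio of 13119 (2354 to 518204). The collagenase *Mmp8* gave 3191 (883 to 26353) and *Camp* 1438 (258 to 56809). *Ly6g*, the surface marker that defines mouse neutrophils, had 0 counts in all NS libraries and 61 to 294 counts in each Tumor+NS library, at least 61.8-fold higher by group mean with the floor at 3 counts per NS library. *Cd177*, a neutrophil surface glycoprotein, was at least 287-fold higher and the whey-acidic-domain gene *Wfdc21* at least 44.8-fold higher on the same basis. The cystatin-like genes *Stfa2*, *Stfa2l1*, *Stfa3* and *Cstdc4* on chromosome 16 were also called higher, but they are near-identical copies between which reads may be divided, so their separate values are uncertain. *Il36g*, an interleukin 1 family cytokine, gave a ratio of 582 (161 to 4813). Like *Cd177*, *Stfa3* and *Cstdc4*, it passed the FPKM filter only through the tumor-bearing hearts.

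The precursor genes *Mpo* and *Elane* depended more on Tumor+NS replicate 5 than the late genes did, though this contrast was not tested. *Mpo* had 0 counts in NS, and in Tumor+NS it was 31.3 CPM in replicate 5 but 0.453 to 3.02 CPM in the others, at least 33.9-fold higher over the group and at least 9.06-fold without replicate 5, and it was called without replicate 5 as well (adjusted p = 0.000357). *Elane* was 8.11 CPM in replicate 5 and at most 0.555 CPM elsewhere, and was not called without that library (adjusted p = 0.126). The late genes did not need replicate 5. Without it the log2 fold change of *S100a9* was 10.23 and of *Csf3r* 5.88, and *Ly6g* was at least 60.9-fold higher.

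**Figure D2:**
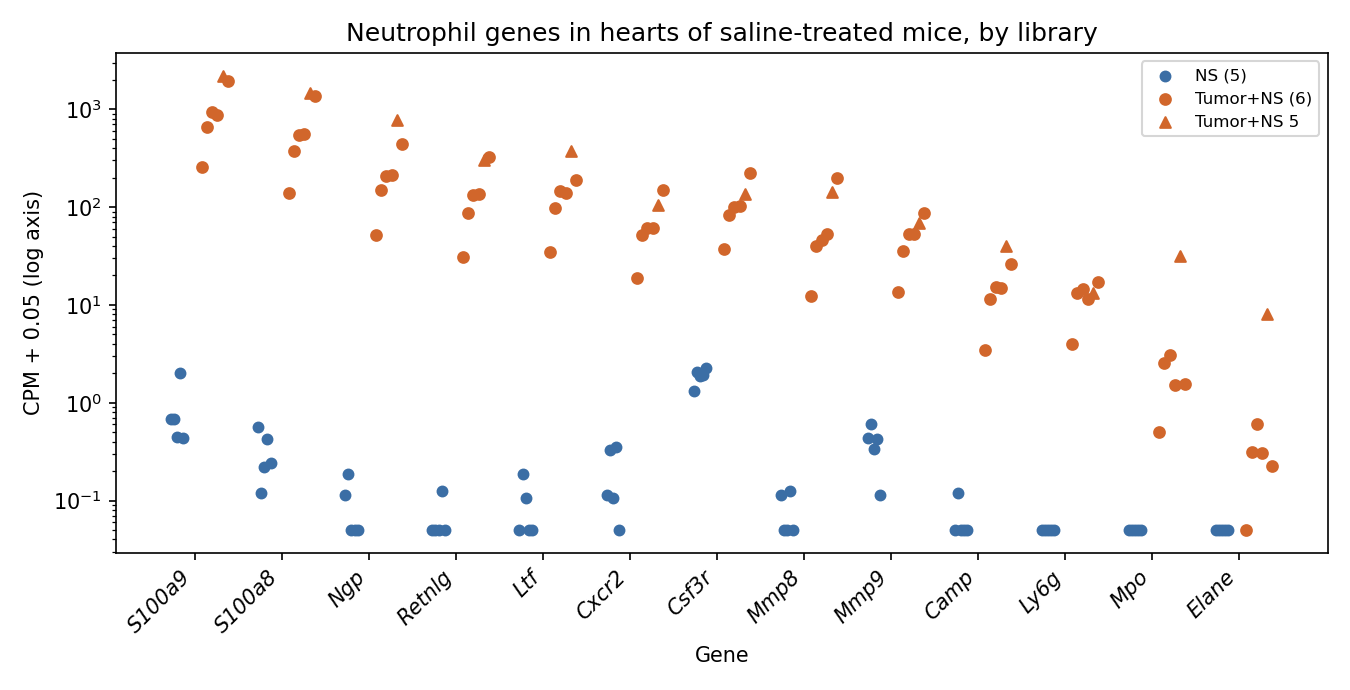
Each point is 1 library, with CPM plus 0.05 on a log y axis, blue for the 5 NS and orange for the 6 Tumor+NS libraries in replicate order, and a triangle for Tumor+NS replicate 5. For each gene other than *Mpo* and *Elane* the lowest tumor-bearing library stands well above the highest control, as for *S100a9* (255 CPM against 1.94 CPM), whereas *Elane* separates mainly in replicate 5 (8.11 CPM).

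Because these genes moved together, their promoters were read from RefSeq (GRCm38.p6, a different build from the gene coordinates above), as the 250 bases before the annotated start. The motif searched on both strands was TTGCNNAA, which covers sites of the kind bound by C/EBP factors, which direct granulocyte differentiation. It occurred in 6 of the 14 neutrophil markers that had a promoter entry (42.9%), namely *S100a9*, *Retnlg*, *Ly6g*, *Ngp*, *Ltf* and *Mmp8*. The share was 14% among the 557 matched called-higher genes, 9.21% among the 9768 matched tested genes and 9.56% among all 32851 windows. The purine motif GAGGAA, the core bound by PU.1, occurred in 71.4% of the markers, 38.2% of the called-higher genes, 26.3% of the tested genes and 23.3% of all windows. A match is a description of letters and not evidence of binding. The sequences of *Ltf*, *Ngp* and *S100a9* are given because they show where the matches fall, and that of *S100a8* because it lies beside *S100a9*, also rose, and holds none. Capitals mark TTGCNNAA matches on either strand, whose first bases lie 75 bases before the start in *Ltf*, 138 and 11 in *Ngp*, and 236 in *S100a9*.
Ltf, chr9:111019042-111019291, plus strand: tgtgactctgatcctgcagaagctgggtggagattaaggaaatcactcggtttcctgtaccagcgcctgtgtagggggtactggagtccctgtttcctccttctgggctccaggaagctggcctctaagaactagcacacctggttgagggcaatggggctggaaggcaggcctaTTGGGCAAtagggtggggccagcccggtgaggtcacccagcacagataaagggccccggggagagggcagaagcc
Ngp, chr9:110419558-110419807, plus strand: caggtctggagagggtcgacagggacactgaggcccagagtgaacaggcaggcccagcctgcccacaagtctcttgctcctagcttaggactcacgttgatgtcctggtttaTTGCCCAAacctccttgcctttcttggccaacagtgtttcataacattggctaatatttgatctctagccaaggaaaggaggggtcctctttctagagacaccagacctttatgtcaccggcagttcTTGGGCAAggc
S100a9, chr3:90695722-90695971, minus strand: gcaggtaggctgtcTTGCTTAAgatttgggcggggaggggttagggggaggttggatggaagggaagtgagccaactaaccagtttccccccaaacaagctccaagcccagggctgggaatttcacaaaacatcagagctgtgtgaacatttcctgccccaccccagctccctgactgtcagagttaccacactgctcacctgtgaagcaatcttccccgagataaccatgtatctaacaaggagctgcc
S100a8, chr3:90668821-90669070, plus strand: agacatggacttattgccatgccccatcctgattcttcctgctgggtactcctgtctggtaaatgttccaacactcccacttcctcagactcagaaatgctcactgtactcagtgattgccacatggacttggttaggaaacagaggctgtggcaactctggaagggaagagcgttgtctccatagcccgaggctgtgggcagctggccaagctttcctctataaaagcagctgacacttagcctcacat

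Monocyte markers rose by less, and macrophage markers were not called. Of the 5 monocyte markers that reached the FPKM minimum in NS alone 3 were called higher, with and without Tumor+NS replicate 5 (3.62% and 2.57% of all such genes), at a median log2 fold change of 0.74, where the median over all genes at that minimum in NS was -0.01. Another 4 passed only through the tumor-bearing hearts and were called higher too, and the 9 summed to 160 to 232 CPM in NS and 264 to 619 CPM in Tumor+NS. *Ccr2*, the receptor that draws monocytes into tissue, measured 4.14, 4.65, 2.78, 4.85 and 6.46 CPM in NS and 9.64 to 20.1 CPM in Tumor+NS with a median of 13.1. The groups did not overlap, and the log2 difference was 1.60 ± 0.27 (SE, adjusted p = 0.000462). The lysozyme gene *Lyz2*, shared by monocytes, macrophages and neutrophils, rose by 0.74 ± 0.17 (SE, adjusted p = 0.0101). *Ly6c2*, which marks inflammatory monocytes, rose by 0.96 ± 0.25, while *Chil3* and *Plac8*, which neutrophils can also express, rose by 7.99 and 6.17 (*Chil3* by 7.21 without replicate 5). *Ifitm6*, likewise, had 6 counts over the NS libraries and a count ratio of 1241 (570 to 3383). None of the 13 macrophage markers was called by edgeR, DESeq2 or limma (1 had an unadjusted p under 0.05, and 1 was called with quality weights, a fit that called 6.58% of all tested genes higher and 4.00% lower), and they summed to 152 to 184 CPM in NS and 178 to 219 CPM in Tumor+NS.

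Some genes that many kinds of leukocyte express were called higher, and no list of such genes was counted. *Ptprc* (CD45, the common leukocyte phosphatase, chosen after its values were seen) was 9.50 to 14.4 CPM in NS and 40.4 to 158 CPM in Tumor+NS, a log2 fold change of 3.04 ± 0.27 (SE, adjusted p = 1.70e-07). *Lcp1*, which bundles actin in leukocytes and was likewise chosen afterwards, rose by 3.15 ± 0.31. *Anxa1*, an annexin abundant in neutrophils and monocytes, had 48.4, 39.6, 37.0, 44.6 and 32.1 CPM in NS and 77.6 to 504 CPM in Tumor+NS with a median of 195. Its groups did not overlap either, and it rose by 2.68 ± 0.38 (SE, adjusted p = 4.87e-05). *Actb* (beta actin) rose by 1.14 ± 0.21 and the actin-sequestering *Tmsb4x* by 0.71 ± 0.14, while the tubulin gene *Tuba1b* was not called (log2 fold change 0.38, adjusted p = 0.116). *Btg1*, an antiproliferative gene of quiescent lymphoid and myeloid cells, rose by 1.68 ± 0.28 and *Gda* (guanine deaminase) by 2.53 ± 0.37, both chosen after their values were seen and both without overlap between groups.

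Few markers of other immune lineages were called. With 6.57% of all tested genes called, lists as short as these would hold few calls or none at that share. None of 3 dendritic, 2 thymocyte or 3 platelet markers was called by edgeR, DESeq2 or limma, and 0 of them had an unadjusted p under 0.05. Of 3 B cell markers *Ighm* was called higher, though not without replicate 5 (log2 fold change 0.95 with it, 0.87 without). The single tested T and NK cell marker, *Cd3e*, was 42.7 CPM in Tumor+NS replicate 5 and at most 1.73 CPM in the other 10 libraries, and was not called. Of 5 mast cell and basophil markers, *Hdc* (histidine decarboxylase) rose by 3.78 ± 0.46 (SE, adjusted p = 7.79e-06), a gene that neutrophils can also express and that passed the filter only through the tumor-bearing hearts, while the mast cell genes *Cpa3*, *Mcpt4* and *Kit* were not called. Interferon-stimulated genes (35 tested), MHC class II genes (5) and MHC class I and peptide-loading genes (14) had 0 calls each by edgeR, DESeq2 or limma. At an unadjusted p under 0.05 they had 2, 0 and 3, and with quality weights 2, 0 and 5 were called, all higher, against 6.58% of all tested genes in that fit. *Ifitm3* and *Ifitm2*, membrane proteins induced by interferon but also by other cytokines, rose by 1.03 ± 0.22 and 1.21 ± 0.28 and were chosen after their values were seen.

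Many acute phase and STAT3 target genes were higher. Of 30 listed, 16 reached the FPKM minimum in NS alone, and 12 of these were called higher and none lower, against 3.62% of all such genes called higher, at a median log2 fold change of 1.51. Without Tumor+NS replicate 5 the count was 6, against 2.57%. Another 5, *Itih4*, *Hp*, *Orm1*, *Saa3* and *Bcl3*, passed the filter only through the tumor-bearing hearts, and all but *Itih4* were called higher. *Socs3*, the feedback inhibitor of this pathway, measured 2.93, 1.25, 2.44, 1.34 and 1.61 CPM in NS and ranged from 8.34 to 198 CPM in Tumor+NS with a median of 20.1. Each tumor-bearing heart was above each control, with replicate 5 standing apart, and the log2 fold change of 4.68 ± 0.73 (SE, adjusted p = 0.000151) became 3.37 (adjusted p = 6.50e-06) without that library. The oncostatin M receptor gene *Osmr* had 50.1, 39.5, 32.5, 34.2 and 33.1 CPM in NS and 58.2 to 210 CPM in Tumor+NS with a median of 91.7. It rose in all 6 tumor-bearing hearts, by 1.47 ± 0.29 (SE, adjusted p = 0.00196). *Stat3* itself rose by 0.83 ± 0.21 (adjusted p = 0.0167) and the interleukin 6 receptor gene *Il6ra* by 1.72 ± 0.30, whereas the shared co-receptor *Il6st* was not called.

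The secreted acute phase products varied more between hearts. *Hp* (haptoglobin, which binds free hemoglobin and is also a neutrophil granule product) rose by 6.72 ± 0.70 (SE, adjusted p = 9.47e-07). *Lcn2*, an iron-siderophore carrier also made by neutrophils, spanned 1.23 to 27.2 CPM in NS and 22.2 to 385 CPM in Tumor+NS. Its groups overlapped, and it rose by 3.97 ± 0.75 (SE, adjusted p = 0.00138), or by 3.34 without replicate 5. *Saa3*, a serum amyloid A gene, had 3 counts over the NS libraries and a count ratio of 1825 (624 to 8850), or 930.5 (318 to 4515) without replicate 5. A further 6 genes were called with all libraries and not without replicate 5. The log2 fold change went from 1.29 to 1.14 for *C4b*, from 1.38 to 1.09 for *Lrg1*, from 1.54 to 1.07 for *Lbp*, from 2.86 to 1.83 for *Serpina3n*, from 1.82 to 0.98 for *Pim1* and from 1.48 to 0.64 for *Il1r1*.

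Of 17 inflammatory cytokine and NF-kB target genes that reached the FPKM minimum in NS alone, 10 were called higher, 5 without replicate 5, and of 17 chemokines and receptors 4, with and without it. *Ccl6*, *Ccl7* and *Ccr2* were called in both fits, *Cxcl1* with replicate 5 only and *Cxcl12* without it only. The shares over all such genes were 3.62% and 2.57%. Another 5 and 7 members passed the filter only through the tumor-bearing hearts, *Il1b*, *Il6* and *Ccr1* among them. Some of their members are also expressed by neutrophils and monocytes. *Il1b* had 0.128, 0.208, 0.170, 0.672 and 0.323 CPM in NS and 4.59 to 33.3 CPM in Tumor+NS with a median of 15.2. It did not overlap between groups and rose by 5.87 ± 0.66 (SE, adjusted p = 2.94e-06), and without replicate 5 by 5.57. The chemokine receptor *Ccr1* rose by 4.77 ± 0.49, *Myd88*, the adaptor of Toll-like receptors, by 1.67 ± 0.27 and the inflammatory caspase gene *Casp4* by 2.15 ± 0.38, and each stayed called without replicate 5.

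For other members a single heart stood far above the rest. *Il6* was 99.5 CPM in Tumor+NS replicate 5 and 0.259 to 0.923 CPM in the other 5 tumor-bearing hearts, against at most 0.347 CPM in NS. With that library it was called (log2 fold change 6.68, adjusted p = 0.0184), and without it the log2 fold change was 1.66 (adjusted p = 0.386). *Cxcl1*, a neutrophil-attracting chemokine, was 141 CPM in replicate 5 and at most 3.08 CPM elsewhere (adjusted p = 0.0323 with it and 0.534 without), and *Cxcl2* and *Cxcl5* followed the same pattern. The endothelial adhesion gene *Sele* (E-selectin) was 93.0 CPM in replicate 5 and 8.20 CPM or less in the others (adjusted p = 0.19 without it). Its relative *Selp* (P-selectin) was 139 CPM in replicate 5 but kept its call without it, at a log2 fold change of 3.06 (adjusted p = 0.00841), since the lowest other tumor-bearing heart at 2.20 CPM was above the highest control at 1.08 CPM.

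Immediate early genes, which are transcribed within minutes of a stimulus or of tissue handling, showed the same dependence. Of 22 that reached the FPKM minimum in NS alone, 6 were called higher with all libraries, against 3.62% of all such genes, and 1, *Junb*, without replicate 5, against 2.57%. *Fos* was 188 CPM in replicate 5 and 1.03 to 12.7 CPM in the other tumor-bearing hearts, against 0.625 to 4.08 CPM in NS. *Junb* had 5.53 to 7.36 CPM in NS and 9.57 to 97.0 CPM in Tumor+NS, did not overlap, and rose by 1.44 (adjusted p = 0.00151) without replicate 5. The whole list summed to 452 to 577 CPM in NS, 482 to 858 CPM in the other 5 tumor-bearing hearts and 3288 CPM in replicate 5. The part of handling, time to freezing or tissue state in replicate 5 was not tested.

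**Figure D3:**
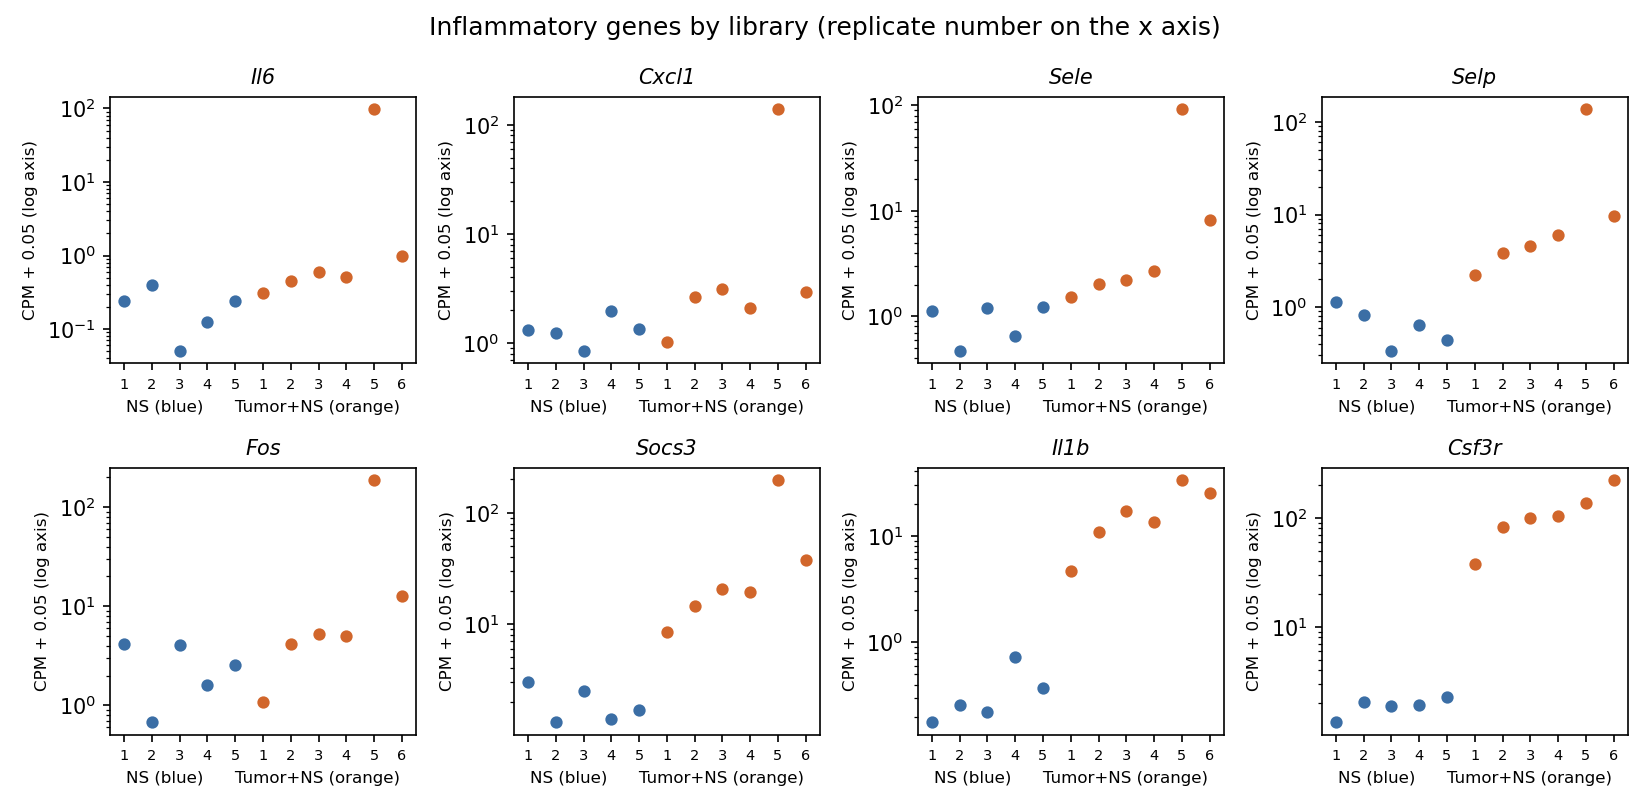
Each panel is 1 gene and each point 1 library, numbered by replicate on the x axis, with CPM plus 0.05 on a log y axis (blue NS, orange Tumor+NS). *Il6*, *Cxcl1*, *Sele* and *Fos* reach 99.5, 141, 93.0 and 188 CPM in Tumor+NS replicate 5 alone, whereas *Socs3*, *Il1b* and *Csf3r* are raised in all 6 tumor-bearing hearts.

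A few genes of sugar, redox and iron metabolism were called higher too. Of 19 hypoxia and HIF targets that reached the FPKM minimum in NS alone 4 were called higher (3 without replicate 5), against 3.62% and 2.57% of all such genes. The list's other tested gene, which passed only through the tumor-bearing hearts, was *Pfkfb4*, a regulator of glycolytic flux, which had 1.76 to 2.97 CPM in NS and 5.76 to 17.8 CPM in Tumor+NS and rose by 2.29 ± 0.27 (SE, adjusted p = 5.91e-06). *Hif1a* rose by 1.03 ± 0.29, while the classical targets *Vegfa*, *Ldha* and *Bnip3* were not called. *G6pdx*, which feeds the pentose phosphate pathway and thereby the oxidative burst, had 7.97, 7.01, 5.79, 7.09 and 6.52 CPM in NS and 14.9 to 61.9 CPM in Tumor+NS with a median of 33.3. All 6 tumor-bearing hearts were above the controls, and it rose by 2.43 ± 0.34 (SE, adjusted p = 3.98e-05). *G6pdx* and *Pfkfb4* were lowest in replicate 1 and highest in replicates 5 and 6, as were the neutrophil marker sums (609 CPM in replicate 1, 5900 and 5246 CPM in replicates 5 and 6), and the part of neutrophil RNA in these rises was not tested. *G6pdx* was 1 of 4 genes called higher among 27 antioxidant and metallothionein genes, with *Gpx1*, *Gsr* and *Gclm*, while *Gsta4* was called lower. Over all tested genes 5.29% were called higher and 1.28% lower. Without replicate 5, *G6pdx* and *Gpx1* were called, and *Gsr*, *Gclm* and *Gsta4* were not, at log2 fold changes of 0.47, 0.68 and -0.36 against 0.66, 0.69 and -0.38 with it. *Nqo1*, *Hmox1*, *Mt1* and *Mt2* were not called.

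Of 19 iron genes 3 were called higher, *Slc40a1*, *Trf* and *Lcn2*, 1 lower, *Tfrc*, and 15 were not called, with the same counts without replicate 5. Over all tested genes 5.29% were called higher and 1.28% lower, or 4.07% and 0.998% without replicate 5. The exporter gene *Slc40a1* (ferroportin) had 20.5, 22.6, 14.2, 17.1 and 14.7 CPM in NS and 27.7 to 52.3 CPM in Tumor+NS with a median of 41.6. The groups did not overlap, and it rose by 1.23 ± 0.23 (SE, adjusted p = 0.00144). The uptake receptor gene *Tfrc* was 145 to 322 CPM in NS and 53.3 to 145 CPM in Tumor+NS and fell by 1.06 on the log2 scale (SE 0.32, adjusted p = 0.0486), a call that was lost in 9 of the 11 fits without 1 library. *Trf*, the transferrin gene, rose by 0.76 ± 0.19. The storage genes *Fth1* and *Ftl1* were not called. Of 24 complement and coagulation genes that reached the FPKM minimum in NS alone 4 rose (2 without replicate 5), against 3.62% and 2.57% of all such genes, including *C5ar1*, the receptor for a neutrophil attractant, by 3.16 ± 0.40, *C3* by 1.07 ± 0.28 and *Vwf*, made by endothelium and platelets, by 0.69 ± 0.17. *C3* was not called without replicate 5 (adjusted p = 0.0546).

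Other lists held few calls, several of them at or near the 6.57% called over all tested genes. Of 27 ER stress and ATF4 genes *Slc3a2*, a subunit of amino acid transporters, rose by 1.00 ± 0.21, *Xbp1* by 0.59 ± 0.15 and *Asns* by 1.28 ± 0.33, and *Aldh18a1* fell by 0.75 (SE 0.22), of which *Asns* and *Aldh18a1* were not called without replicate 5. Of 23 p53 targets *Pmaip1*, which passed the filter only through the tumor-bearing hearts, and *Trp53inp1* were called higher, the latter not without replicate 5 (log2 fold change 1.62 with it, 0.90 without), and *Cdkn1a*, *Mdm2* and *Bax* were not called. *Mki67*, a proliferation marker that passed the filter only through the tumor-bearing hearts, was the single call among 18 cell cycle genes, at 3.49 to 30.1 CPM in Tumor+NS against 2.55 to 5.04 CPM in NS, and was lost without replicate 5 (adjusted p = 0.16). *Lcn2* was the single call among 21 glucocorticoid response genes, *Slc2a1* among 26 glycolysis genes (lost without replicate 5), the lysosomal protease gene *Lgmn* among 26 autophagy and lysosome genes, and *Psme4*, which fell, among 23 proteasome genes (adjusted p = 0.0944 without replicate 5, and lost in 7 of the 11 fits without 1 library). *Napsa*, a protease of lung epithelium that leukocytes can also express, rose by 3.31 ± 0.64, or 2.67 without replicate 5, and passed the filter only through the tumor-bearing hearts.

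Genes of matrix and growth factor signaling were called in both directions, where 5.29% of all tested genes were called higher and 1.28% lower. Of 20 TGF-beta family ligands and response genes, *Tgfbi*, *Inhba* and *Inhbb* were called higher and *Tgfb3* and *Bmp6* lower, of which *Inhba* was not called without replicate 5. *Inhbb* passed the filter only through the tumor-bearing hearts, and its log2 fold change was 3.02 with replicate 5 and 1.50 without. *Tgfbi*, a secreted matrix protein also made by monocytes and macrophages, rose by 1.68 ± 0.29 (SE, adjusted p = 0.000463). *Bmp6*, the ligand by which endothelium drives hepcidin in the liver, had 27.5, 27.4, 19.2, 19.8 and 23.8 CPM in NS and 9.80 to 15.6 CPM in Tumor+NS with a median of 14.1. All tumor-bearing hearts were below all controls, and it fell by 0.84 on the log2 scale (SE 0.16, adjusted p = 0.00124). Of 39 matrix genes *Lox*, the collagen cross-linker, was called higher and *Col6a2*, *Mfap5* and *Hspg2* lower, of which only *Mfap5* was called without replicate 5. Without that library *Col4a1* and *Col4a2*, which form the collagen of basement membranes, were called lower instead (log2 fold changes -0.43 and -0.36, against 0.05 and -0.08 with it). The log2 fold change of *Col6a2* was -0.81 with that library and -0.76 without, and that of *Hspg2* -0.31 and -0.30. With quality weights 13 of the 39 were called lower, against 4.00% of all tested genes in that fit. The 10 fibroblast markers summed to 2427 to 2622 CPM in NS and 1671 to 2188 CPM in Tumor+NS, without overlap, and 1 of them was called lower, or 6 with quality weights, set against the same 4.00%. Of the matrix genes, *Col1a1*, *Col1a2*, *Col3a1*, *Fn1* and *Postn* were not called. *Mfap4* was 9.23 ± 2.00 CPM in NS and 5.37 ± 2.71 CPM in Tumor+NS (SD, adjusted p = 0.209), and *Itgb6* 17.6 ± 6.21 and 11.9 ± 8.14 CPM (adjusted p = 0.469).

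Among the genes that fell, *Myo10*, a myosin of filopodia, had the smallest adjusted p. It measured 58.7, 69.1, 70.0, 66.8 and 72.4 CPM in NS and 28.7 to 50.5 CPM in Tumor+NS with a median of 37.0. There was no overlap, and it fell by 0.82 on the log2 scale (SE 0.11, adjusted p = 3.93e-05). *Aqp1*, the water channel of capillary endothelium, had 364, 434, 329.5, 319 and 331 CPM in NS and 156 to 222 CPM in Tumor+NS with a median of 194. The highest tumor-bearing heart was again below the lowest control, and it fell by 0.92 (SE 0.13, adjusted p = 6.65e-05). *Vegfc*, a lymphatic growth factor, fell by 0.95 (SE 0.19, adjusted p = 0.00202), *Pltp*, the phospholipid transfer protein gene, by 0.89 (SE 0.18), and *Cdkn1c*, a cell cycle inhibitor, by 0.95 (SE 0.19). Each of these 5 genes stayed called in all 11 fits without 1 library. *Cavin2*, which shapes endothelial caveolae and was chosen after its values were seen, fell by 0.72 (SE 0.17, adjusted p = 0.00886). Of the 10 endothelial markers, *Tie1* was called lower (not without replicate 5, adjusted p = 0.0559) and *Vwf* higher, while *Pecam1*, *Cdh5*, *Kdr* and *Fabp4* were not called. The shares over all tested genes were 1.28% lower and 5.29% higher.

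Some of the 19 falls of at least 1 on the log2 scale depended on single libraries. *Papln*, a matrix glycoprotein gene, was 6.73 ± 2.12 CPM in NS and 2.25 ± 1.16 CPM in Tumor+NS (SD) and fell by 1.59 (SE 0.30, adjusted p = 0.00141). *D630003M21Rik*, an uncharacterized gene, fell by 1.59 (SE 0.43), *Tcim* by 1.03 (SE 0.24), *Fibin* by 1.17 (SE 0.32) and *Angptl7*, an angiopoietin-like secreted protein gene, by 1.45 (SE 0.43). Of these 5, only *Papln* and *Tcim* stayed called in all 11 fits without 1 library, and *Angptl7* lost its call in 9. *Ssu2* was 4.19 ± 1.24 CPM in NS and 1.81 ± 0.85 CPM in Tumor+NS (SD, log2 fold change -1.22, SE 0.28, adjusted p = 0.00788), with overlapping groups. The small nucleolar or predicted transcripts *Gm24233*, *Gm13341*, *Mylf-ps* and the ciliary gene *Cfap43* also fell by at least 1, and the ciliary gene *Crocc* by just under 1, each at a mean of under 6 CPM in NS. *Papln*, *Cfap43* and *Crocc* were under the FPKM minimum in Tumor+NS and passed it through NS only, as did *Tnp1*, so that a fall was built into the filter for these. *Tnp1*, a spermatid chromatin protein gene, was the steepest called fall, with 2 to 17 counts in each NS library against 1 count over all Tumor+NS libraries, a ratio of 49.9 (8.42 to 2020) of NS to Tumor+NS, and what a spermatid transcript represents in hearts was not tested.

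Few cardiac muscle genes were called. *Acta1*, the skeletal actin isoform that hearts use in the fetal gene program, was called lower, at 3200, 2355, 2965, 2255 and 2086 CPM in NS and 294 to 1921 CPM in Tumor+NS with a median of 804. All tumor-bearing hearts were below all controls, and it fell by 1.34 (SE 0.36, adjusted p = 0.0263), but 5 of the 11 fits without 1 library lost the call, the fit without Tumor+NS replicate 5 among them (log2 fold change -1.28, adjusted p = 0.0527). Other striated muscle genes, chosen after their values were seen, were also called lower. *Casq1*, the skeletal form of calsequestrin, fell by 1.15 (SE 0.28), *Myh7b* by 0.54 (SE 0.16) and *Dmd*, the dystrophin gene, by 0.41 (SE 0.12). *Unc45b*, a myosin chaperone gene, fell by 0.41 (SE 0.11), *Myo18b* by 0.37 (SE 0.09) and the sarcoplasmic reticulum channel gene *Tmem38a* by 0.37 (SE 0.10), and of these 6 genes *Casq1* and *Myo18b* were called without replicate 5. The natriuretic peptide genes, which report wall stress, were not called: *Nppa* was 157 ± 55.2 CPM in NS and 98.7 ± 59.8 CPM in Tumor+NS (SD, adjusted p = 0.321), and *Nppb* 176 ± 68.0 and 276 ± 357 CPM (SD, adjusted p = 0.534), with 999.6 CPM in replicate 5 and at most 176 CPM in the other tumor-bearing hearts. The creatine kinase genes *Ckm* (log2 fold change -0.23, adjusted p = 0.323) and *Ckb* (-0.35, adjusted p = 0.128) were not called. *Myh6*, the adult myosin heavy chain gene, changed by -0.22 (SE 0.10, adjusted p = 0.221).

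Several lists of heart physiology and housekeeping genes had no call in edgeR's test. None of 21 sarcomere genes, 13 mitochondrially encoded genes, 35 nuclear respiratory chain genes or 35 fatty acid oxidation genes was called, where 6, 0, 3 and 8 had an unadjusted p under 0.05. Neither was any of 20 clock, 24 heat shock or 43 ribosomal protein genes, where 7, 2 and 3 did. Over all tested genes 20.9% had an unadjusted p under 0.05 and 6.57% were called. The unadjusted share was lower for mitochondrially encoded (0%), respiratory chain (8.57%), heat shock (8.33%) and ribosomal protein genes (6.98%). It was higher for sarcomere (28.6%), fatty acid oxidation (22.9%) and clock genes (35%). No list was tested as a set. DESeq2 called 2 sarcomere genes lower and 1 fatty acid oxidation gene higher, and 0 in the other 5 lists, while limma on FPKM called 0 in all 7. With quality weights, where 6.58% of all tested genes were called higher and 4.00% lower, 4 fatty acid oxidation genes and 1 ribosomal protein gene were called higher, and 2 sarcomere genes and 1 heat shock gene lower. Their median log2 fold changes lay between -0.14 and 0.11. Among 33 calcium handling and channel genes 1 was called higher and 1 lower, where 5.29% and 1.28% of all tested genes were. The lower one was *Kcnj3*, a subunit of the acetylcholine-gated potassium channel, which fell by 0.71 (SE 0.20). Of 30 muscle atrophy genes only *Gadd45a* was called, and not without replicate 5, while the ubiquitin ligases *Fbxo32* and *Trim63* were not called. *Ucp3*, a mitochondrial carrier gene raised by fasting, was 17.8 ± 6.22 CPM in NS and 33.0 ± 27.4 CPM in Tumor+NS (SD, adjusted p = 0.318). A p over the threshold does not show that levels were equal, and NS replicate 3, with its low mitochondrial share, stood apart from the other controls in several of these genes.

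**Figure D4:**
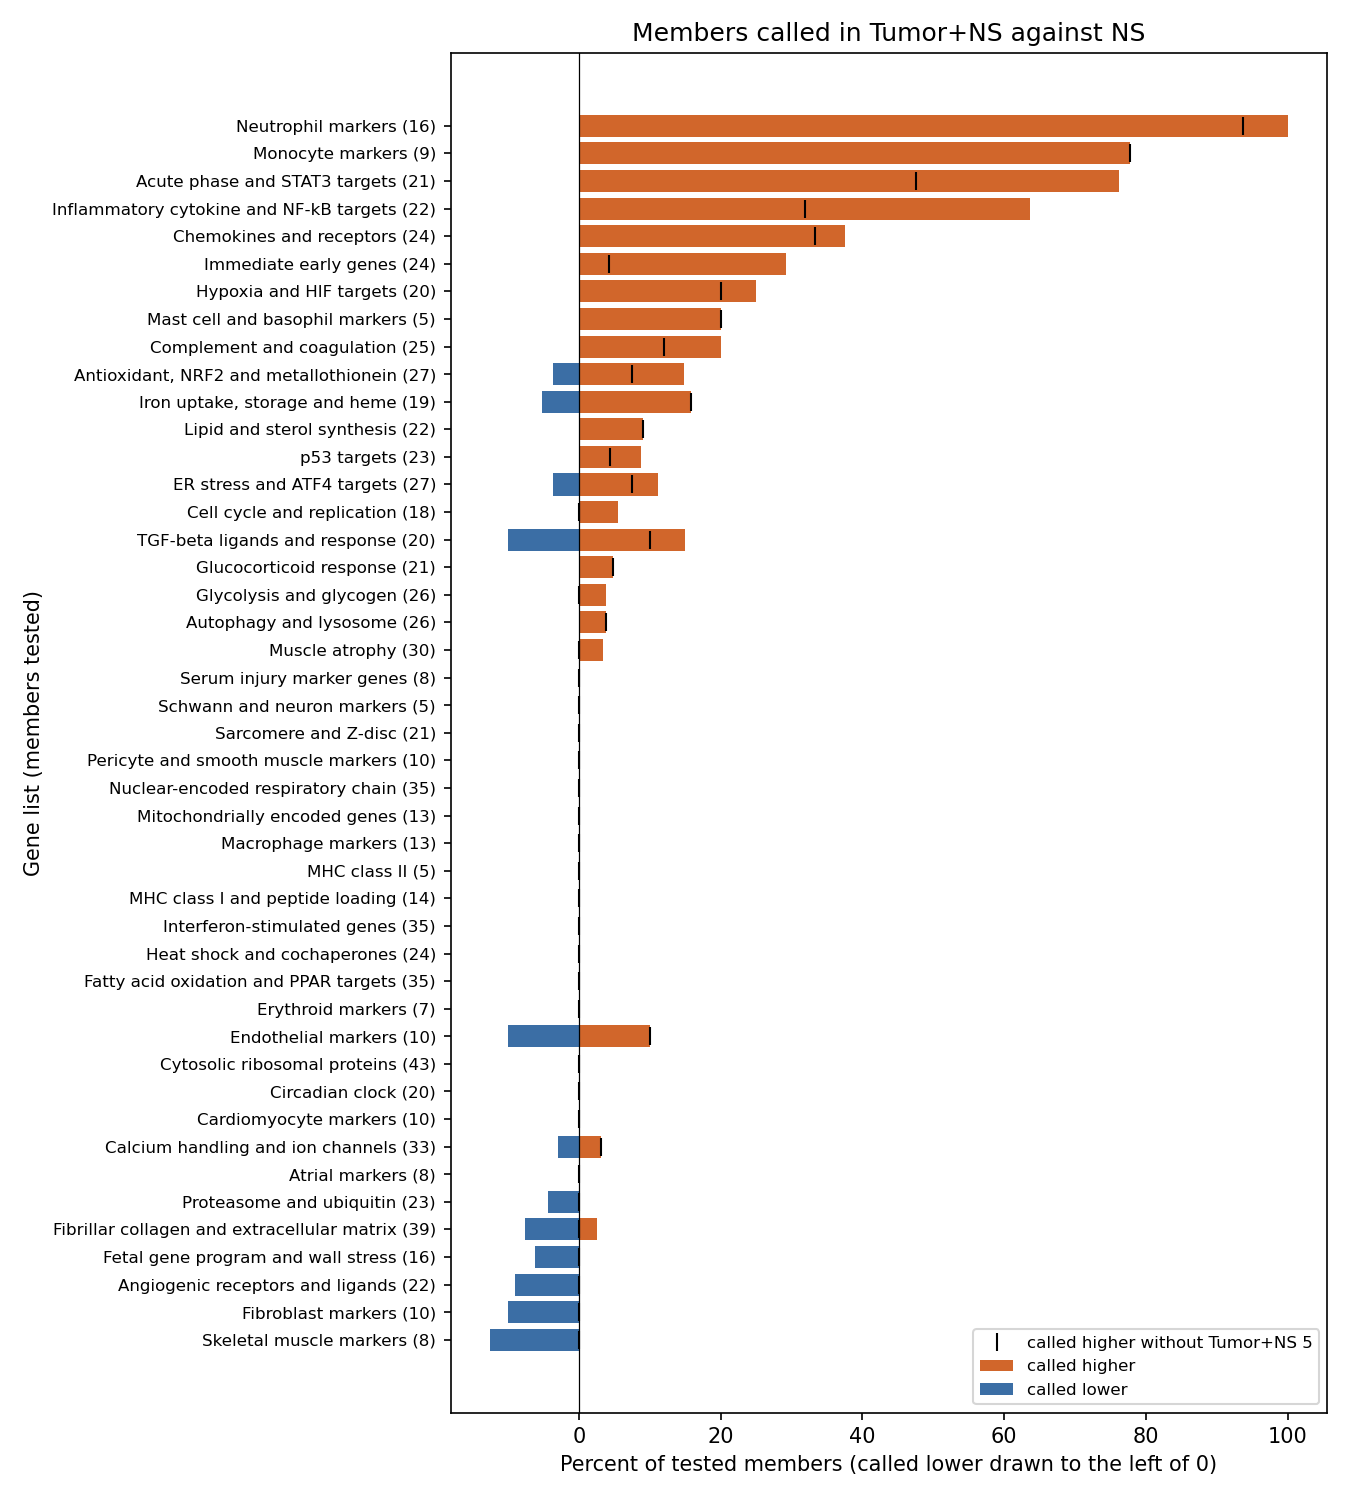
Each bar is a list of genes with at least 5 tested members, showing the percent called higher in Tumor+NS (orange, to the right of 0) or called lower (blue, to the left of 0), with the number tested in brackets and a black tick for the percent called higher without Tumor+NS replicate 5. Neutrophil markers reach 16 of 16, of which 14 passed the FPKM filter only through Tumor+NS, monocyte markers reach 7 of 9 (4 only through Tumor+NS) and acute phase genes 16 of 21 (5 only through Tumor+NS), and the bars for sarcomere, respiratory chain and interferon genes are empty.

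The same tumor was then read in hearts of mice given doxorubicin, an anthracycline chemotherapy drug, by comparing Tumor+DOX with DOX, which share no library with Tumor+NS and NS. Between them, 1352 genes were called higher (9.63%) and 1087 lower (7.74%). Of the 743 genes called higher with saline, 438 were also called higher with doxorubicin and 14 were called lower, and 648 (87.2%) had a positive log2 fold change, as did 49.8% of all tested genes. Few of the 179 genes called lower with saline were called lower with doxorubicin. Of them 15 were called lower and 14 higher with doxorubicin, and 85 (47.5%) had a negative log2 fold change against 50.1% of all tested genes.

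Neutrophil genes rose in both settings, from different baselines. With doxorubicin 14 of the 16 markers were called higher, all but the precursor genes *Mpo* and *Elane*. The marker list summed to 9.37 to 64.9 CPM in DOX, above the 2.78 to 5.08 CPM of NS, and to 957 to 4085 CPM in Tumor+DOX, within the range of Tumor+NS. *Csf3r* rose by 5.49 with doxorubicin and 5.95 with saline (log2), a difference that did not pass the test (adjusted p = 0.587). *Bmp6* fell by 0.85 with doxorubicin and 0.84 with saline, and *Aqp1* and *Myo10* were likewise called lower in both. The difference between the 2 tumor effects was called for 1289 genes (9.18%), 549 (3.91%) higher and 740 (5.27%) lower with doxorubicin. It used the saline libraries a second time, so a call with saline and a called difference of the opposite sign are not independent.

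Among the called-higher genes this difference was called for 80, in 78 of them toward a smaller rise with doxorubicin. *S100a9* rose by 10.53 with saline and 6.64 with doxorubicin, with 0.388 to 1.94 CPM in NS but 2.49 to 25.8 CPM in DOX. *Retnlg* and *Cxcr2* had the same form, at 5.42 and 5.50 with doxorubicin. Among the called-lower genes the difference was called for 68, all toward a less negative value with doxorubicin. *Crocc* fell by 1.00 with saline and rose by 1.30 with doxorubicin (adjusted p of the difference 0.00506), and *Ssu2* fell by 1.22 and rose by 1.02 (adjusted p of the difference 0.00761). *Gm32699* was not called with saline (log2 fold change -0.80, adjusted p = 0.258) and rose by 1.98 with doxorubicin (adjusted p of the difference 0.013).

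**Figure D5:**
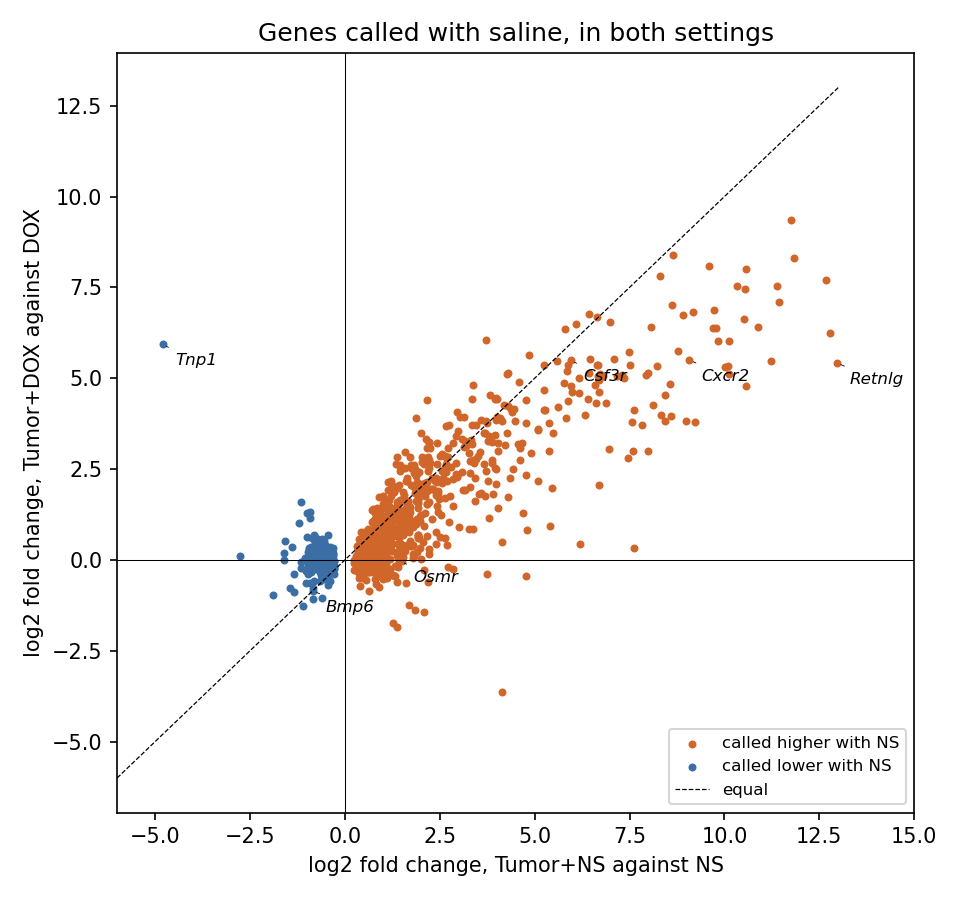
Each point is a gene called in Tumor+NS against NS (orange higher, blue lower), with that log2 fold change on the x axis and the log2 fold change of Tumor+DOX against DOX on the y axis, and a dashed line where both are equal. Most orange points lie above 0 on the y axis (648 of 743), while the blue points scatter on both sides (85 of 179 below 0).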

How the data were processed

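Total RNA was sequenced as paired-end Illumina or MGI libraries after oligo(dT) selection or ribosomal RNA depletion, per the labels. According to the submitters' processing notes, reads were trimmed with cutadapt, aligned to GRCm39 with HISAT2 and counted per gene with HTSeq 0.6.1, and DESeq2 1.34.0 is also named. The authors deposited raw counts per gene and FPKM values for 21 libraries, and both were used here as deposited, the counts for tests and the FPKM values for the filter on low levels (mean of at least 0.5 over the 11 libraries of NS and Tumor+NS). Strandedness of counting is not given in the sources used here.

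Counts were tested with edgeR 4.0.16 (R 4.3.3), with trimmed mean of M values scaling and 1 coefficient per group over all 21 libraries, and p-values were adjusted over 14035 genes by Benjamini-Hochberg. CPM values use the same scaling. SE is of the log2 fold change. Genes with 3 or fewer counts in each library of one group are given as count ratios with exact 95% intervals, or as bounds. The code was tested on simulated data. No libraries were dropped or counted together, since within-group pairs differed by at least 5.942 in chi-square per degree of freedom.

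The members and the 58 gene lists were chosen with earlier results of these data known. Genes are named where they are the 12 called genes of largest change per direction without overlap, the 10 of smallest p, 10 listed by name (*Nppa*, *Nppb*, *Ckm*, *Ckb*, *Mfap4*, *Itgb6*, *Ucp3*, *Ssu2*, *Tnp1*, *Gm32699*), or each list's most abundant and smallest-p member. Others were chosen after their values were seen. Counts without Tumor+NS replicate 5 were an alternative chosen after seeing the data. Some genes that these rules name are not reported here.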

Additional observations from a re-analysis of the deposited data

Results flagged for a closer look

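A library was marked where its gap to the nearest other library of its group, on the log2 scale, took up more of the group's range than Dixon's 95% limit, given here as the gap's share of the range. Chance alone marks about 1 group in 20. Among the neutrophil genes, NS replicate 4 was high for *Retnlg* (1), *Stfa2l1* (1) and *S100a9* (0.711) and NS replicate 1 for *Stfa2* (1), where a share of 1 means that the other libraries were all at 0, and Tumor+NS replicate 1 was low for *Ly6g* (0.721).

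NS replicate 3, the library with the low mitochondrial share, was marked most often among the controls. It was high for *Atp5a1* (0.912), *Ckm* (0.872), *Myl2* (0.87), *Myl3* (0.838), *Mb* (0.803), *Gsn* (0.785), *Fth1* (0.783), *Mybpc3* (0.78), *Rps15* (0.768), *Ctsd* (0.766) and *Gpx4* (0.732), and low for *mt-Co1* (0.847) and *Atp2a2* (0.782). Other controls stood apart for single genes, replicate 5 low for *Nr1d2* (0.85), replicate 1 low for *B2m* (0.762), replicate 2 high for *Napsa* (0.754) and replicate 4 low for *Cd3e* (0.774).

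Tumor+NS replicate 5 was high for *Tnp1* (1), *Ldhb* (0.873), *Ddx3y* (0.852), *Cd3e* (0.83), *Klf6* (0.764), *Gpx4* (0.742), *Cryab* (0.74), *Ccn2* (0.712), *Dcn* (0.71), *Nfkbia* (0.68), *Nppb* (0.677), *Ctsd* (0.652) and *Atp5a1* (0.647), and low for *Zbtb46* (0.666) and *Fibin* (0.64). Tumor+NS replicate 6 was low for *Myh6* (0.742), *Atp2a2* (0.728), *Mb* (0.695) and *Gsn* (0.675).

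The tumor effect differed between mice given doxorubicin and mice given saline, by edgeR's test of the difference itself, for several of the named genes. The values are the log2 effect with doxorubicin minus that with saline. This difference was negative for the neutrophil genes *Retnlg* (-7.54), *Mmp8* (-5.75), *S100a8* (-4.33), *S100a9* (-3.89) and *Cxcr2* (-3.57), which rose less with doxorubicin. It was also negative for *Cd3e* (-7.62), *Alas2* (-2.52), *Tap1* (-1.7), *Slc3a2* (-1.27), *Gata2* (-1.25) and *Ddx3y* (-0.67). A negative value can be a smaller rise or a fall with doxorubicin. *Cd3e* was 42.7 CPM in Tumor+NS replicate 5 and at most 1.73 CPM in the other Tumor+NS and NS libraries. In DOX it ranged from 4.46 to 311 CPM, so its difference rests on scattered libraries. The difference was positive for *Tnp1* (10.73), *Gm32699* (2.77), *Crocc* (2.29), *Ssu2* (2.24), *Papln* (2.12), *Gm13341* (1.75), *Vegfc* (1.23), *Ccl21a* (1.13) and *Hspg2* (0.64). A positive value does not mean a larger effect with doxorubicin. *Vegfc*, for example, had log2 fold changes of -0.95 with saline and 0.28, not called, with doxorubicin. *Tnp1* had 0 counts in all DOX libraries and at most 1 in Tumor+NS libraries, and *Retnlg* and *Mmp8* had at most 1 count in any NS library, so these differences depend on the prior count and are no bounds.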

How the results depend on the processing

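Of the 743 higher and 179 lower genes (514 and 19 with a log2 fold change of at least 1), the higher count was within 1.5 times under all alternatives but 4, namely a mean FPKM of at least 5 (266), the FPKM minimum in NS alone (488, an alternative chosen after seeing the data), an adjusted p under 0.01 (423) and the replicate block (424). The lower count moved more, to 84 when only the 5 NS and 6 Tumor+NS libraries were fitted, 101 with library totals, 89 at a mean FPKM of at least 5, 289 with DESeq2, 73 with limma on log2(FPKM + 0.1), 562 with limma and quality weights, 32 at an adjusted p under 0.01 and 67 with the block. In limma with quality weights, which changed both the test and the weighting, the share of higher genes among those called was 62.2% against 80.6%, and Tumor+NS replicate 5 had a weight of 0.1241. With the fold threshold, the lower count was 11 (11 libraries fitted), 81 (no filter), 6 (FPKM of at least 5), 36 (quality weights) and 5 (adjusted p under 0.01), and the higher count 136 (FPKM of at least 5) and 268 (limma on log2(FPKM + 1)). The difference between the tumor effects, called for 1289 genes, was called for 1997 with DESeq2 and 520 with the block. Leaving out 1 library gave 546 to 946 higher and 88 to 289 lower genes, 392 to 593 and 10 to 50 with the fold threshold, and 734 to 1755 called differences. The lowest lower count was without NS replicate 2 and the highest without Tumor+NS replicate 1. Same-numbered libraries deviated with correlations of -0.141 to -0.008 across groups, so the numbers do not pair the libraries and the block is given as a count only. None of the named genes changed direction while called, under any alternative. DESeq2 left 60 adjusted p-values undefined. At these totals, transcripts at a few counts per library, such as *Elane*, *Orm1* and *Tnp1*, carry wide intervals. Apart from the exceptions above, the cause of a move was not tested.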
